A study of Homo sapiens with 33 samples.

Results

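The homologous recombination and Fanconi anemia genes were taken as 43 genes chosen by name: the rows of the deposited count and TPM tables whose symbol is on a list of double-strand break repair, interstrand crosslink repair and replication checkpoint genes. They are 43 of the 29744 genes in the table. For the description they were grouped by role: 3 genes of break sensing and resection, 5 of the checkpoint, 5 of the BRCA complexes, 3 subunits of RPA, 8 of strand exchange (RAD51B, RAD51C, RAD51D, XRCC2, XRCC3, RAD54L, RAD54B and RAD52), 9 genes of the Fanconi core complex and its E2 enzyme, the FANCD2-FANCI pair, 4 genes of double Holliday junction dissolution and 4 of the structure-specific nucleases.

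The samples were 33 RNA-seq libraries, 3 from each of 11 high-grade serous ovarian carcinoma (HGSOC) cell lines, made to compare platinum-resistant lines with their sensitive counterparts. OVCAR3 and OVCAR4 are established HGSOC lines, and from each of them a pair of resistant lines, ResA and ResB, was selected independently by repeated short exposures to rising doses of cisplatin. In the PEA family PEA1 is the sensitive and PEA2 the resistant line, and in the PEO family PEO1 is sensitive and PEO4 and PEO6 are resistant; the lines of each of these families come from the same patient. The selected lines were not kept in cisplatin, and each is a single line, so that selection and drift in culture cannot be told apart. OVCAR3 ResA and ResB share the OVCAR3 libraries as control, as do OVCAR4 ResA and ResB the OVCAR4 libraries and PEO4 and PEO6 the PEO1 libraries. In bulk RNA a lower value can stand for fewer cells that express a gene or for less RNA per cell.

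Cisplatin binds DNA bases and forms adducts within a strand as well as crosslinks between the strands of the double helix. When a replication fork meets such a crosslink, the Fanconi core complex attaches ubiquitin to FANCD2 and FANCI, nucleases cut the crosslink free, and the break that is left is repaired by homologous recombination: MRN and CtIP trim the ends, RPA coats the single strand, and BRCA1, PALB2 and BRCA2 prepare it to pair with the intact copy. HGSOC is known for frequent loss of this pathway through BRCA1 or BRCA2, and tumours without it are often sensitive to platinum.

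Libraries held between 18058985 and 43394009 counts, and the 2 mitochondrial rRNA genes took from 1.12% to 14.8% of them. This share differed widely between libraries of the same line: it was 5.18%, 14.8% and 12% in OVCAR4, 9.23%, 2.02% and 2.09% in OVCAR4 ResA, 13.1%, 2.47% and 2.39% in OVCAR4 ResB, and 5.97%, 8.88% and 1.12% in OVCAR3 ResB (replicates 1, 2 and 3). The lines were checked against epithelial and serous markers. PAX8, EPCAM, KRT7, KRT8, KRT18 and CDH6 were at 1 TPM or more in all 11 lines, WT1 in 9, SOX17 in 8 and MUC16 and MSLN in 10. PEA1 had the lowest sum of these 10 markers, 501 TPM, against 6881 TPM in OVCAR3, with KRT7 at 2.95 TPM and MUC16 at 0.0696 TPM. The sum of 5 fibroblast markers ran from 0.935 TPM to 88.4 TPM (PEA1, nearly all COL1A1) and that of 3 endothelial markers from 0.0683 to 7.37 TPM (PEA2). Of the immune markers, CD68 was highest in PEA2 at 49.9 TPM and PTPRC at 3.3 TPM, while CD3E, DCN and COL1A2 were under 1 TPM in every line; their part in the results was not tested.

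The promoters of 3 members are shown, because their genes carry results below: FANCF was lowest in OVCAR4 ResB, BRCA1 was higher in both OVCAR4-derived lines, and RAD54L was called lower in 3 pairs. Each is the 250 bases before the RefSeq start on GRCh38.p14, in the direction of the gene; capitals mark a CCAAT box (CCAAT on either strand) and an E2F core, which is TTCCCGC or TTGGCGC or TTGCCGC or TTCGCGC on either strand. CCAAT boxes are bound by NF-Y, and E2F is the factor that turns on many S phase genes.
FANCF promoter, chr11:22625824-22626073, minus strand: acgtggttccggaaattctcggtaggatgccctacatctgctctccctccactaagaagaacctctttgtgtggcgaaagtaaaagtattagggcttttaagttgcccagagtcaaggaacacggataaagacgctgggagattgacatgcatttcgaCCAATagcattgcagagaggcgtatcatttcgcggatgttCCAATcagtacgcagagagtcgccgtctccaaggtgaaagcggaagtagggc
BRCA1 promoter, chr17:43125365-43125614, minus strand: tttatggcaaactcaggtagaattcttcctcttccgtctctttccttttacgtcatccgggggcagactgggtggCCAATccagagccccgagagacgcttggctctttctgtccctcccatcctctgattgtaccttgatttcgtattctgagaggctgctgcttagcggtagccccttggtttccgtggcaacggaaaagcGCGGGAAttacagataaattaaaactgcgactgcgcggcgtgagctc
RAD54L promoter, chr1:46247438-46247687, plus strand: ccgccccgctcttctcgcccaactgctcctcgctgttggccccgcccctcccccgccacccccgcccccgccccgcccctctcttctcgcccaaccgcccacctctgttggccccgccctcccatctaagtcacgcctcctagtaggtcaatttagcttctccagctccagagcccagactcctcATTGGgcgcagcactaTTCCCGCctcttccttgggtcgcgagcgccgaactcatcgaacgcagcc

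The FANCF window held 2 CCAAT boxes and 0 matches to the E2F core, while the BRCA1 and RAD54L windows held 1 of each. RefSeq gives BRCA1 and RAD54L a further start each, whose windows are not printed. Of the 43 members, 37 had a promoter window, and 14 of these (37.8%) had an E2F core in at least 1 window, against 13% of all 27305 genes with a window and 21.5% of the 9925 of them with a mean of at least 1 TPM in these libraries. The 14 were TOPBP1, BRCA1, RPA1, RAD51D, RAD54L, RAD52, FANCA, FANCC, FANCG, FANCL, BLM, RMI1, TOP3A and EME1. A CCAAT box was found in 17 of 37 members (45.9%), 37% of all genes and 41.9% of the expressed ones. Over windows instead of genes, the E2F core was in 10.9% and the CCAAT box in 32% of 35116. A match is a run of letters and no evidence of binding.

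All 43 members were measured in every library, and no member was at 3 counts or fewer in any; the lowest count was 28.3, for RAD51D. Levels are given in TPM, which adjusts for gene length and so can be set side by side between genes. RBBP8, UBE2T, RPA1, RAD51C and NBN reached line means above 100 TPM, whereas SLX4 never exceeded 3.06 TPM as a line mean. The ratio of the highest to the lowest line mean ran from 1.69 for MUS81 to 9.76 for RBBP8, followed by 8.46 for FANCF. In total the 43 genes summed to 755 TPM ± 257 (SD, n = 3) in OVCAR3 ResB and to 1481 TPM ± 283 (SD, n = 3) in OVCAR4 ResB, the lowest and the highest of the 11 lines. OVCAR4 ResB had the highest mean TPM of the 11 lines for 17 of the 43 members, RAD50, ATR, CHEK2, BARD1, XRCC2, FANCD2 and TOP3A among them. The share of all genes that were highest in this line was not counted. On the log2(TPM + 1) scale the median difference between OVCAR4 ResB and OVCAR4 was 0.48 over the 13038 genes compared, which had a mean of at least 1 TPM. TPM thus stood higher than in OVCAR4 for most of these genes.

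BRCA1, the ubiquitin ligase that promotes resection and loads PALB2, was lowest in OVCAR4, at 6.21, 4.31 and 4.65 TPM in replicates 1, 2 and 3. OVCAR4 ResA had 11.2, 15.4 and 17.8 TPM and OVCAR4 ResB 14.3, 24.9 and 26.9 TPM. Every library of both resistant lines thus lay above every OVCAR4 library, as was the case for 32.2% of all genes tested in ResA and 33.4% in ResB. OVCAR3 had 8.59, 5.91 and 7.2 TPM, OVCAR3 ResA 11, 6.44 and 5.51 TPM and OVCAR3 ResB 7.05, 7.84 and 15.7 TPM. PEA1 had 23.3, 14 and 30.7 TPM and PEA2 28.7, 24.1 and 21.9 TPM. PEO1 had 31.4, 20.8 and 26 TPM, PEO4 23.6, 20.3 and 15.2 TPM and PEO6 11.7, 10.1 and 24.2 TPM. The OVCAR3, PEA and PEO groups overlapped within each family.

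BRCA2, which acts on the resected single strand, was low throughout, between 0.778 and 9.27 TPM in single libraries. OVCAR4 had 3.41, 1.22 and 1.42 TPM, OVCAR4 ResA 2.05, 6.88 and 9.27 TPM and OVCAR4 ResB 2.6, 7.42 and 5.74 TPM. Replicate 1 of both resistant lines lay within the range of OVCAR4. OVCAR3 had 2.52, 1.16 and 0.893 TPM, OVCAR3 ResA 4.47, 2.18 and 1.55 TPM and OVCAR3 ResB 1.49, 0.953 and 3.45 TPM. PEA1 had 5.32, 2.1 and 6.66 TPM and PEA2 4.61, 3.78 and 2.39 TPM. PEO1 had the lowest mean, from 1.35, 0.778 and 1.77 TPM, beside 2.2, 1.88 and 1.43 TPM in PEO4 and 1.1, 0.877 and 2.38 TPM in PEO6. The BRCA2 libraries of every resistant line overlapped in TPM with those of its sensitive line.

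PALB2, the bridge between BRCA1 and BRCA2, was highest in PEA2, at 33.3, 26.3 and 23.6 TPM, with PEA1 at 14.5, 9.95 and 15.2 TPM. It was lowest in OVCAR3, at 5.82 TPM ± 1.32 (SD, n = 3). FANCD2, the ubiquitinated platform of crosslink repair, had line means from 9.31 TPM in OVCAR3 to 27.8 TPM ± 6.64 (SD, n = 3) in OVCAR4 ResB. Its partner FANCI ran from 17 TPM ± 3.26 (SD, n = 3) in OVCAR3 to 67.8 TPM in PEA1, whose libraries had 70.6, 45.6 and 87 TPM. FANCA, the scaffold of the core complex, was highest in PEA1 at 12.4 TPM and lowest in PEO6 at 3.57 TPM. RAD51C, which acts in the BCDX2 and CX3 complexes, was highest in OVCAR4 ResA, with 106, 112 and 116 TPM, and lowest in PEO1, with 16.8, 15.6 and 20.2 TPM. RAD51D, its partner in the BCDX2 complex, was the member with the fewest counts and ran from 1.83 TPM in OVCAR3 to 8.37 TPM in PEA1. Its reads may be split with the read-through gene RAD51L3-RFFL, those of BRCA1 with the neighbour NBR2, those of FANCD2 with FANCD2OS and those of CHEK2 with the copy CHEK2P2, so that these levels are uncertain to that extent. With the counts of each partner added to its gene, all 94 gene results called in the main run were on the same side of the threshold. Most of the 94 belong to genes whose counts were not changed, and RAD51D had no call that could be lost. In OVCAR4 ResB against OVCAR4 ResA 19 members were called in place of 18.

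**Figure D1:**
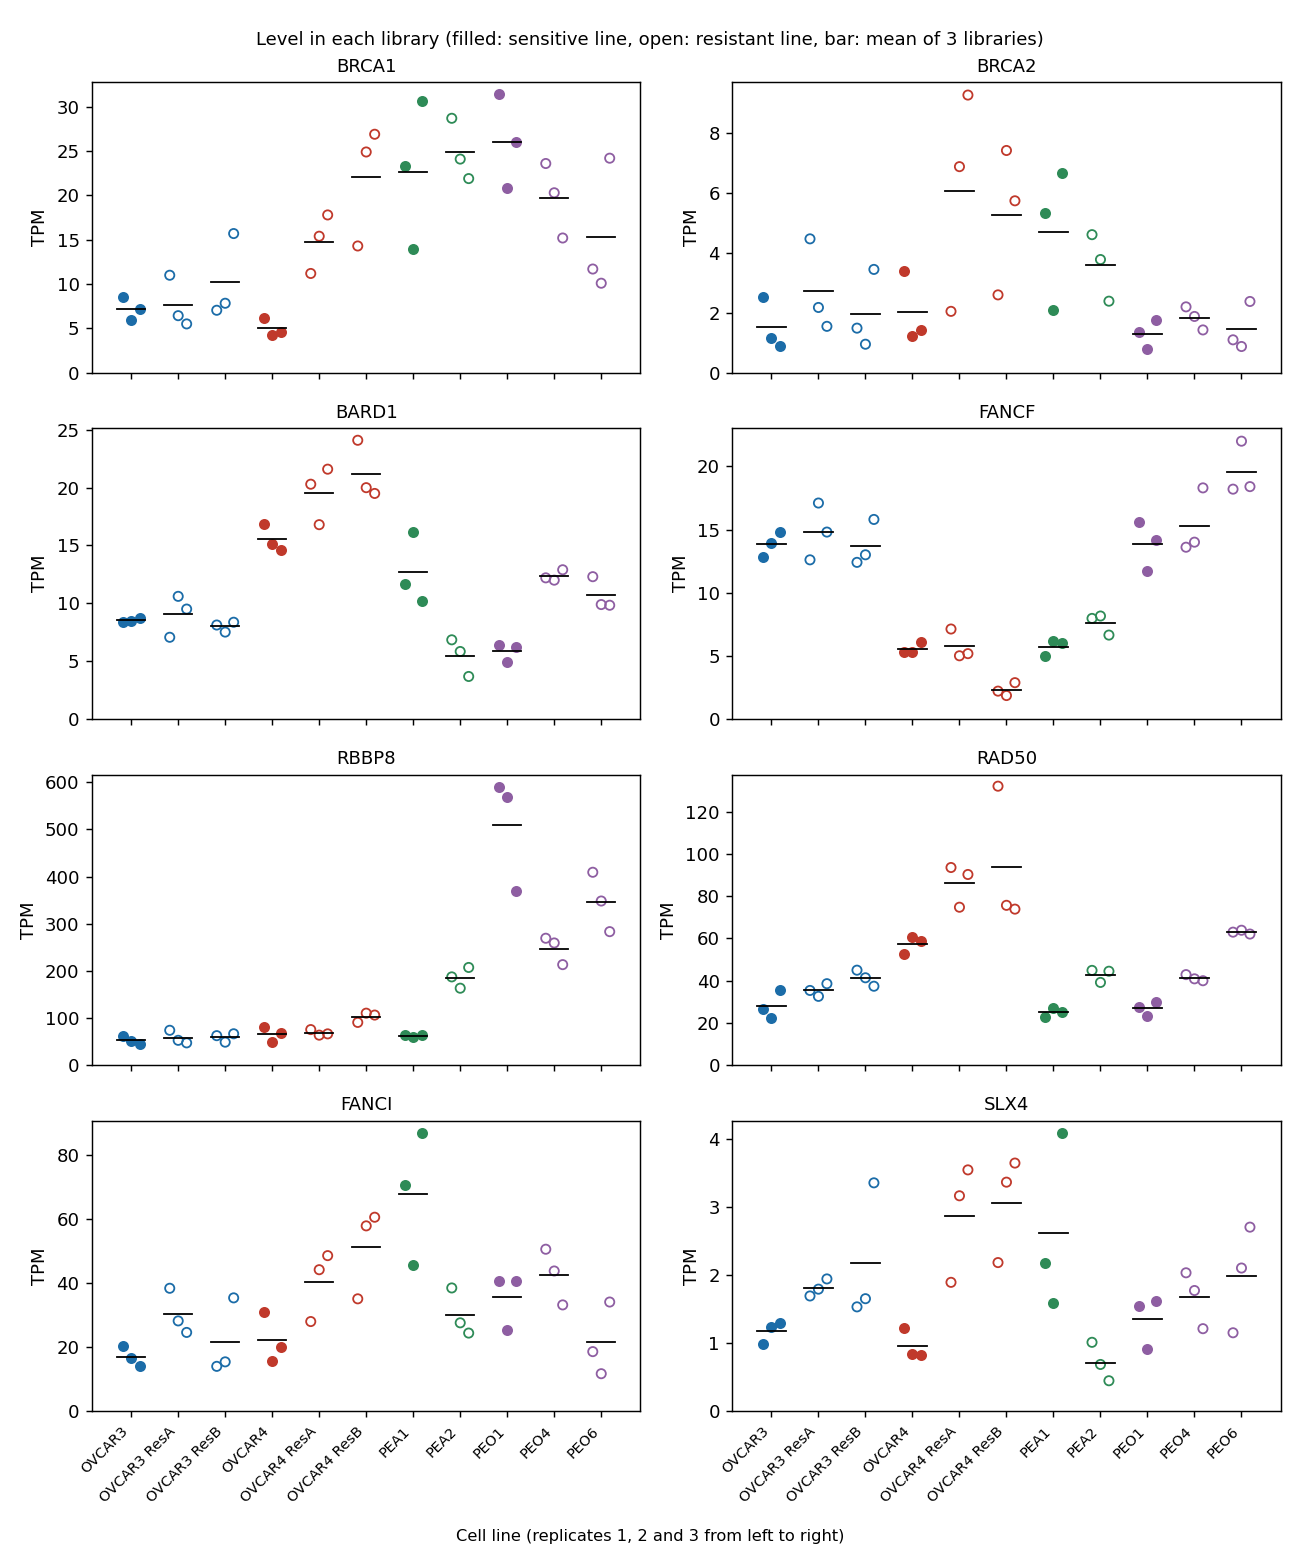
TPM (y axis, from 0) of 8 members in each of the 33 libraries, by cell line (x axis); colours mark the families, filled points sensitive lines, open points resistant lines and bars the mean of 3 libraries. BRCA1 in OVCAR4 (4.31 to 6.21 TPM) lay below both derived lines, FANCF was lowest in OVCAR4 ResB (1.85 to 2.87 TPM) and RBBP8 highest in PEO1 (369 to 589 TPM).

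Each resistant line was compared with its sensitive line by DESeq2 on the 6 libraries with the replicate number as a block, and a gene was called at an adjusted p under 0.05 over all genes tested. In OVCAR3 ResA 14 of 43 members (32.6%) were called, 7 higher and 7 lower, where 44.9% of all genes tested were called, 22% higher and 22.9% lower. On the TPM scale the split was 14 higher and 4 lower by limma. OVCAR3 ResB had 0 members called by DESeq2 and 0 by edgeR, with 3 at an unadjusted p under 0.05 in each, beside 7.67% of all genes, 4.1% higher and 3.57% lower.

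OVCAR4 ResA had 2 members called (4.65%), both higher, beside 11.9% of all genes, 6.68% higher and 5.22% lower. OVCAR4 ResB had 5 (11.6%), 4 higher and 1 lower, beside 17.9% of all genes, 9.09% higher and 8.77% lower. In PEA2 17 members (39.5%) were called, 7 higher and 10 lower, beside 47% of all genes, 23.3% higher and 23.8% lower. In PEO4 12 (27.9%) were called, 6 in each direction, beside 33.3%, of which 16.6% were higher and 16.7% lower. PEO6 had 20 (46.5%), 7 higher and 13 lower, beside 41.4% of all genes, 21.2% higher and 20.3% lower. The share of members called was below that of all genes in 6 of the 7 pairs and above it in PEO6; these differences were not tested.

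Summed over the 7 pairs, 70 of 301 combinations of member and pair were called (23.3%), 33 higher and 37 lower, beside 29.8% of 116947 combinations of all genes tested. Of the 43 members 36 were called in at least 1 pair. RPA2, RAD51D, RAD54B, FANCC, FANCL, FANCD2 and EME1 were called in none. No member was called in the same direction in more than 3 pairs. The shares of all genes called in at least 1 pair, in none or in the same direction in several were not counted. RAD50 was higher in PEA2, PEO4 and PEO6, RAD51C in OVCAR3 ResA, PEO4 and PEO6, and BRIP1 in OVCAR4 ResA, OVCAR4 ResB and PEO4, while RAD54L was lower in OVCAR3 ResA, PEA2 and PEO6. Since PEO4 and PEO6 share PEO1, and the OVCAR4 lines share OVCAR4, the calls of RAD50, RAD51C and BRIP1 are not 3 separate observations each.

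The median log2 fold change of the members was near 0 in OVCAR3 ResA (0.03), PEA2 (-0.07) and PEO4 (0.05), as it was over all genes tested in these pairs (-0.02, -0.02 and 0.01). It was -0.30 in PEO6, beside 0.02 over all genes, and 0.42 in OVCAR4 ResB, beside -0.01. OVCAR4 ResA and OVCAR3 ResB had member medians of 0.17 and -0.14, beside -0.01 and -0.00. Without replicate 1, 2 and 3 in turn these medians were -0.30, -0.11 and -0.46 in PEO6, 0.52, 0.23 and 0.38 in OVCAR4 ResB, 0.36, 0.00 and 0.10 in OVCAR4 ResA and 0.11, -0.05 and -0.39 in OVCAR3 ResB. With the mitochondrial rRNA share as a covariate the median was 0.22 in OVCAR4 ResB and -0.16 in OVCAR4 ResA, and by limma on log2(TPM + 1) it was 0.80 and 0.61. In PEA2 the median was 0.17 without replicate 3 and -0.34 with that covariate. The median was -0.04 in PEO4 without replicate 2 and -0.06 in OVCAR3 ResA with the covariate. The sign was thus kept in every run only in PEO6 and OVCAR4 ResB.

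**Figure D2:**
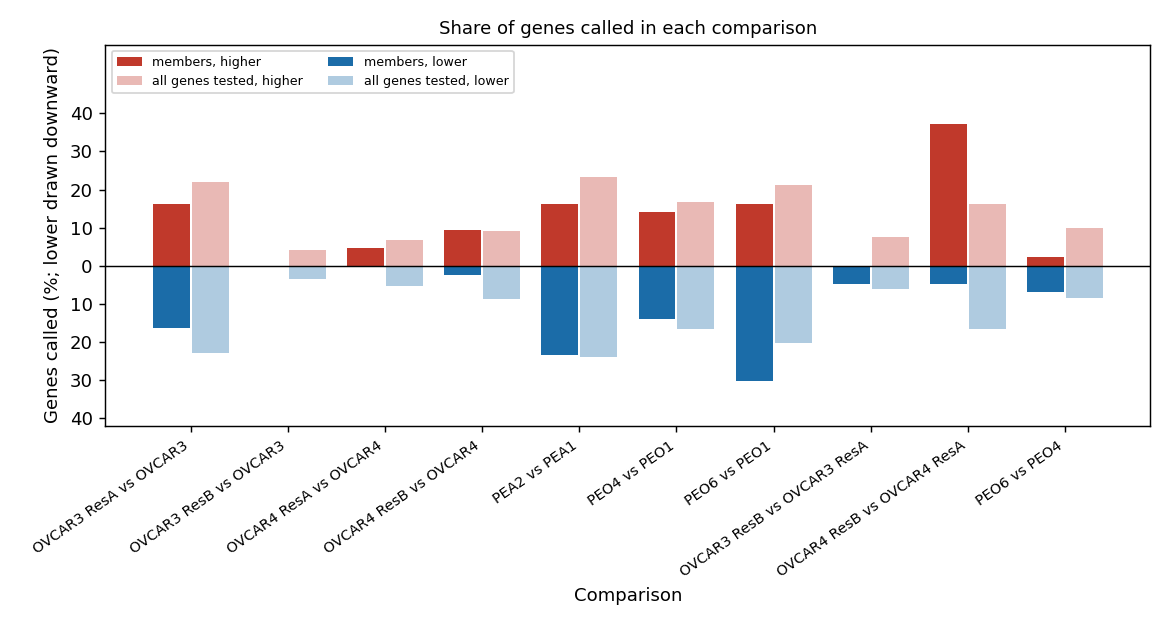
Percent of genes called higher (upward) and lower (drawn downward) in each of the 10 comparisons (x axis), for the 43 members (dark bars, left) and all genes tested (pale bars, right). Members called higher exceeded the background most in OVCAR4 ResB against OVCAR4 ResA (37.2% beside 16.2%), and members called lower in PEO6 against PEO1 (30.2% beside 20.3%).

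The direct comparisons of resistant lines within a family involve no shared sensitive control. OVCAR3 ResB had 2 members (4.65%) called against OVCAR3 ResA, both lower, beside 13.5% of all genes, 7.47% higher and 6.04% lower. OVCAR4 ResB had 18 (41.9%) against OVCAR4 ResA, 16 higher and 2 lower, beside 32.8% of all genes, 16.2% higher and 16.5% lower. The 16 were 37.2% of the members, and the FANCD2-FANCI pair, RPA1 and RPA2, XRCC2, XRCC3 and RAD54B, and FANCG, FANCL and FANCM were among them. This count rested on the block by replicate number, since 5 members were called without it. Replicate 1 of both lines had the high mitochondrial rRNA share given above, and of 30 proliferation markers 12 were called higher and 5 lower in the same comparison; their part in the member count was not tested. PEO6 had 4 (9.3%) against PEO4, 1 higher and 3 lower, beside 18.2% of all genes, 9.86% higher and 8.33% lower.

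The MRN complex and CtIP bind a break and start its resection. RBBP8, the gene of CtIP, had the widest range of all members. PEO1 held 589, 569 and 369 TPM, PEO4 269, 259 and 213 TPM and PEO6 409, 348 and 283 TPM, whereas the 6 lines of the OVCAR3 and OVCAR4 families stayed between 43.9 and 110 TPM. PEA1 had 63.3, 59.2 and 62.9 TPM and PEA2 187, 163 and 207 TPM. RBBP8 was 3.47-fold higher in PEA2 than in PEA1 (log2 fold change 1.80 ± 0.22 SE, adjusted p = 6.39e-15, DESeq2) and 2.07-fold lower in PEO4 than in PEO1 (-1.05 ± 0.18 SE, adjusted p = 2.52e-08), and each call was kept when any replicate was left out. In PEO6 the difference was -0.68 ± 0.23 SE (adjusted p = 0.00992) with overlapping libraries, and the call was lost without replicate 2 (adjusted p = 0.268) and with the mitochondrial rRNA covariate (adjusted p = 0.367).

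RAD50, the zinc hook ATPase of MRN, was called higher in all 3 clinically derived resistant lines. PEO6 had 62.9, 63.8 and 62 TPM and PEO1 27.3, 23.4 and 29.9 TPM, a 2.32-fold difference (log2 fold change 1.21 ± 0.22 SE, adjusted p = 2.11e-07, DESeq2) that was kept whichever replicate was left out. PEO4 had 42.8, 40.8 and 39.9 TPM (0.66 ± 0.16 SE, adjusted p = 0.000241), and PEA2 had 44.8, 39.1 and 44.4 TPM beside 22.5, 27 and 25.3 TPM in PEA1 (0.90 ± 0.25 SE, adjusted p = 0.000866). Both of these calls were lost without replicate 1 (adjusted p = 0.0764 and 0.106). In OVCAR4 ResA and ResB the RAD50 libraries also lay above those of OVCAR4 in TPM, but after the scaling of DESeq2 the log2 fold changes were 0.06 and 0.08 (± 0.35 and 0.44 SE). On the TPM scale the median log2 fold change of genes with a mean of at least 1 TPM was shifted by 0.47 and 0.50 in these pairs. TPM levels of the OVCAR4 family are to be read against that shift. NBN, the regulatory subunit of MRN that recruits ATM, was 0.77 lower on the log2 scale in PEA2 (± 0.22 SE, adjusted p = 0.00135) and 0.68 higher in PEO4 (± 0.16 SE, adjusted p = 0.000214), and both calls were lost without replicate 1 (adjusted p = 0.122 and 0.0823).

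ATM and ATR are the kinases that signal breaks and stalled forks, CHEK2 and CHEK1 their effector kinases, and TOPBP1 the activator of ATR. ATR was 2.29-fold lower in OVCAR3 ResA than in OVCAR3 (log2 fold change -1.20 ± 0.14 SE, adjusted p = 3.18e-16, DESeq2). Its libraries had 12, 7.4 and 8.18 TPM in OVCAR3 ResA and 22.7, 19.3 and 14.4 TPM in OVCAR3, and the call was kept in every alternative run. In OVCAR3 ResB 2 libraries had 10.1 and 10.2 TPM and replicate 3, with the lowest mitochondrial rRNA share of the series, had 36 TPM; no call was made (-0.39 ± 0.40 SE, adjusted p = 0.752). CHEK2 was lower in OVCAR3 ResA (-0.56 ± 0.15 SE, adjusted p = 0.00117), higher in PEA2 (0.92 ± 0.26 SE, adjusted p = 0.00147) and higher in PEO4 (0.80 ± 0.21 SE, adjusted p = 0.001). PEO4 had 21.3, 21.5 and 23.6 TPM and PEO1 11.4, 13.8 and 12.6 TPM. These 3 CHEK2 calls were lost without replicate 2 in OVCAR3 ResA (adjusted p = 0.123) and without replicate 1 in PEA2 and PEO4 (adjusted p = 0.0886 and 0.122). The PEO4 call was also lost with the mitochondrial rRNA covariate (adjusted p = 0.0602).

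CHEK1 was called lower in PEO6 than in PEO4 (1.85-fold, log2 fold change -0.89 ± 0.30 SE, adjusted p = 0.0246, DESeq2) and than in PEO1 (-0.83 ± 0.22 SE, adjusted p = 0.00101). Both were lost without replicate 2 (adjusted p = 0.648 and 0.0755), and the first also without replicate 1 (adjusted p = 0.238), by edgeR (adjusted p = 0.0817) and by limma on TPM. The second was lost with the mitochondrial rRNA covariate (-0.62, adjusted p = 0.342). PEO6 had 25.4, 20.9 and 43.9 TPM, so that the third library stood above the other two. CHEK1 was also 1.37-fold lower in OVCAR4 ResB than in OVCAR4 ResA (-0.45 ± 0.09 SE, adjusted p = 1.42e-05), lost without replicate 2 (adjusted p = 0.0785). ATM was higher in PEO6 (0.79 ± 0.22 SE, adjusted p = 0.00122) and TOPBP1 lower (-0.55 ± 0.23 SE, adjusted p = 0.041), with ATM lost without replicate 2 (adjusted p = 0.086) and TOPBP1 without replicate 1 or 2 (adjusted p = 0.297 and 0.251) and by edgeR (adjusted p = 0.0767). With the mitochondrial rRNA covariate the ATM and TOPBP1 calls were both lost (adjusted p = 0.0686 and 0.775).

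In the BRCA complexes BRCA1 and BRIP1 were called higher in both resistant OVCAR4 lines. BRCA1 was 2.47-fold higher in OVCAR4 ResA (log2 fold change 1.30 ± 0.37 SE, adjusted p = 0.00814, DESeq2) and 3.59-fold higher in OVCAR4 ResB (1.84 ± 0.39 SE, adjusted p = 5.08e-05), and ResB exceeded ResA by 0.55 ± 0.10 SE (adjusted p = 7.97e-07). Without replicate 2 or 3 the adjusted p was 0.447 and 0.622 in ResA and 0.0561 and 0.0974 in ResB, and that of ResB against ResA was 0.0776 without replicate 2. BRIP1, the helicase that binds the BRCT repeats of BRCA1, had 4, 2.5 and 2.2 TPM in OVCAR4, 8.09, 10.6 and 14.6 TPM in OVCAR4 ResA and 8.19, 10.6 and 9.19 TPM in OVCAR4 ResB. It was 2.67-fold higher in ResA (1.42 ± 0.35 SE, adjusted p = 0.0012) and 2.24-fold higher in ResB (1.16 ± 0.31 SE, adjusted p = 0.00221), with adjusted p from 0.131 to 0.5 when replicate 2 or 3 was left out. Both genes stood clear of OVCAR4 in every library of both lines. In TPM, 32.2% of all genes tested in ResA and 33.4% in ResB also lay wholly above OVCAR4, and 5.8% and 8.6% wholly below. By edgeR the ResA calls were lost (adjusted p = 0.108 for BRCA1 and 0.0753 for BRIP1), and by limma on TPM those of both lines. Their level also moved with the mitochondrial rRNA share, lowest in replicates 2 and 3 of the resistant lines; with that share as a covariate in place of the block, an alternative chosen after seeing the data, both genes were called higher in both lines.

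BRIP1 was also called higher in PEO4 (log2 fold change 0.47 ± 0.19 SE, adjusted p = 0.0442, DESeq2), where the libraries overlapped; this was lost without replicate 1 or 2 (adjusted p = 0.374 and 0.425), without the block (0.106), with all libraries in one fit (0.152), with the mitochondrial rRNA covariate (0.283) and by limma on TPM. It was 2-fold lower in PEA2 (SE 0.27 on the log2 scale, adjusted p = 0.000725, DESeq2), with 7.73, 7.08 and 4.12 TPM beside 12.2, 11.7 and 16.3 TPM in PEA1. BRCA1 was 2.01-fold lower in PEO6 (-1.01 ± 0.29 SE, adjusted p = 0.00229), where replicate 3 lay among the PEO1 libraries, and this call was lost without replicate 1 or 2 (adjusted p = 0.11 and 0.107) and with the mitochondrial rRNA covariate (-0.23, adjusted p = 0.793). In PEO4 BRCA1 was not called (-0.46 ± 0.19 SE, adjusted p = 0.0521), nor in PEA2 (0.35 ± 0.28 SE), OVCAR3 ResA (-0.04 ± 0.19 SE) or OVCAR3 ResB (0.47 ± 0.39 SE).

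BARD1 is the partner of BRCA1 in the ubiquitin ligase. PEO1 had 6.35, 4.94 and 6.21 TPM, PEO4 12.2, 12 and 12.9 TPM and PEO6 12.3, 9.89 and 9.83 TPM. BARD1 was 2.06-fold higher in PEO4 (log2 fold change 1.05 ± 0.19 SE, adjusted p = 1.96e-07, DESeq2), kept whichever replicate was left out, and higher in PEO6 (0.73 ± 0.24 SE, adjusted p = 0.0079), lost without replicate 1 or 2 (adjusted p = 0.16 and 0.0878). The PEO6 call was also lost with the mitochondrial rRNA covariate (adjusted p = 0.227). In PEA2 BARD1 was 2.07-fold lower (-1.05 ± 0.26 SE, adjusted p = 0.000158), with 6.84, 5.83 and 3.67 TPM beside 11.7, 16.2 and 10.2 TPM in PEA1. This call was kept whichever replicate was left out but not with the mitochondrial rRNA share as a covariate (-0.47, adjusted p = 0.198). PALB2 was called in PEA2 alone of the 7 pairs, 2.3-fold higher (1.20 ± 0.23 SE, adjusted p = 8.49e-07), and was kept in every alternative run.

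BRCA2 was called in 1 pair, OVCAR3 ResA, where it was 1.62-fold higher (log2 fold change 0.70 ± 0.17 SE, adjusted p = 0.00011, DESeq2) although the libraries overlapped, since each OVCAR3 ResA library exceeded the OVCAR3 library of the same number. It was lost without replicate 1 (adjusted p = 0.0767) and without the block (adjusted p = 0.23). The estimates elsewhere were 1.02 ± 0.53 SE in OVCAR4 ResA, 0.86 ± 0.46 SE in OVCAR4 ResB, 0.59 ± 0.27 SE in PEO4, 0.17 ± 0.45 SE in OVCAR3 ResB, 0.08 ± 0.29 SE in PEO6 and -0.16 ± 0.33 SE in PEA2. None of these was called.

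Of the RPA subunits, which coat single-stranded DNA, RPA3 was higher in PEA2 (log2 fold change 0.91 ± 0.23 SE, adjusted p = 0.000331, DESeq2) and RPA1 lower in PEO6 (-0.86 ± 0.23 SE, adjusted p = 0.000835). RPA3 was lost without replicate 1 (adjusted p = 0.0567) and RPA1 without replicate 2 (adjusted p = 0.0847). RPA1 was also lost with the mitochondrial rRNA covariate (-0.63, adjusted p = 0.316). PEO6 had the lowest RPA1 mean of all lines, 21.5 TPM, and PEA1 the highest, 125 TPM. RPA2 was called in no pair with a sensitive line.

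RAD51C was higher in PEO4, with 30.2, 30.7 and 34 TPM beside 16.8, 15.6 and 20.2 TPM in PEO1 (1.87-fold, log2 fold change 0.90 ± 0.21 SE, adjusted p = 0.000107, DESeq2), and this call was kept in every alternative run. In PEO6, with 46.6, 21.5 and 40.7 TPM, it was 0.85 ± 0.31 SE (adjusted p = 0.02), and in OVCAR3 ResA 0.31 ± 0.14 SE (adjusted p = 0.0485). The PEO6 call was lost without replicate 1 or 3 (adjusted p = 0.407 and 0.129) and the OVCAR3 ResA call whichever replicate was left out (adjusted p from 0.0811 to 0.436). With the mitochondrial rRNA covariate both of these calls were lost (adjusted p = 0.369 and 0.39). In the OVCAR4 lines RAD51C was not called (0.77 ± 0.34 SE and 0.75 ± 0.40 SE, adjusted p = 0.128 and 0.193) although all their libraries lay above those of OVCAR4 in TPM. RAD51D was called in no pair, with estimates from -0.72 in PEO4 to 0.96 in OVCAR4 ResB.

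XRCC2, a further subunit of BCDX2, was 2.66-fold lower in PEO6 (log2 fold change -1.41 ± 0.25 SE, adjusted p = 1.63e-07, DESeq2) and 1.68-fold lower in PEO4 (-0.75 ± 0.18 SE, adjusted p = 0.000138) than in PEO1. PEO1 had 37.8, 24.9 and 37.1 TPM, PEO4 21.9, 18.1 and 17.4 TPM and PEO6 10.3, 8.95 and 20.8 TPM, so that neither line overlapped PEO1. The PEO4 call was lost without replicate 1 (adjusted p = 0.0663), and the PEO6 call with the mitochondrial rRNA covariate (-1.03, adjusted p = 0.0762). In OVCAR4 ResB XRCC2 was 1.95-fold higher than in OVCAR4 ResA (0.96 ± 0.11 SE, adjusted p = 1.59e-15), with 17.2, 60.1 and 53.2 TPM beside 9.24, 26.6 and 28.2 TPM; the difference appeared within each replicate number, and without the block the adjusted p was 0.222. XRCC3, which pairs with RAD51C in the CX3 complex, was called higher in OVCAR3 ResA (0.33 ± 0.14 SE, adjusted p = 0.0469) and lower in PEO6 (-0.69 ± 0.28 SE, adjusted p = 0.034), and its difference did not pass the test between families (adjusted p = 0.166). The OVCAR3 ResA call was lost whichever replicate was left out (adjusted p from 0.0812 to 0.348), and the PEO6 call without replicate 1 or 2 (adjusted p = 0.405 and 0.151) and with the mitochondrial rRNA covariate (adjusted p = 0.65).

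RAD54L, a motor protein that acts in strand invasion, was lower in OVCAR3 ResA (1.6-fold, log2 fold change -0.68 ± 0.19 SE, adjusted p = 0.000924, DESeq2), in PEA2 (-1.05 ± 0.26 SE, adjusted p = 0.000227) and in PEO6 (-0.80 ± 0.27 SE, adjusted p = 0.00977), and 2.32-fold lower in PEO6 than in PEO4 (-1.21 ± 0.36 SE, adjusted p = 0.00666). PEA1 had 21.2, 13.5 and 24.7 TPM and PEA2 9.62, 8.28 and 7.22 TPM. Each of the 4 calls was lost when replicate 1 was left out (adjusted p = 0.0805, 0.0534, 0.151 and 0.27), and all but that of PEA2 when replicate 2 was (adjusted p = 0.0562, 0.169 and 0.38). The call of PEO6 against PEO1 was also lost with the mitochondrial rRNA covariate (adjusted p = 0.493). RAD52, which anneals strands, was higher in PEO6 (2.33-fold, 1.22 ± 0.27 SE, adjusted p = 5.54e-05), with 7.98, 9.3 and 9.81 TPM beside 4.22, 3.76 and 4.21 TPM in PEO1, and kept whichever replicate was left out. In PEA2 it was 0.99 ± 0.32 SE higher (adjusted p = 0.00652) and lost whichever replicate was left out (adjusted p from 0.0527 to 0.299). RAD51B was 1.9-fold higher in PEO6 than in PEO4 (0.93 ± 0.34 SE, adjusted p = 0.035), lost without replicate 1 or 2 (adjusted p = 0.37 and 0.43) and by edgeR (adjusted p = 0.0518).

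In the Fanconi core complex the largest difference was that of FANCF, an adaptor subunit with an intronless gene. The OVCAR3 and PEO lines had 11.7 to 22 TPM of FANCF in single libraries, and the OVCAR4 and PEA lines 8.15 TPM or less. OVCAR4 ResB had 2.2, 1.85 and 2.87 TPM, OVCAR4 5.32, 5.26 and 6.08 TPM and OVCAR4 ResA 7.12, 5 and 5.17 TPM. ResB thus lay below both of its relatives in every library. Against OVCAR4 it was 3.61-fold lower (log2 fold change -1.85 ± 0.40 SE, adjusted p = 9.08e-05, DESeq2) and against OVCAR4 ResA 2.55-fold lower (-1.35 ± 0.26 SE, adjusted p = 1.68e-06). The call against ResA was kept in every alternative run and whichever replicate was left out, while that against OVCAR4 was lost without replicate 2 or 3 (adjusted p = 0.116 and 0.102). The call against OVCAR4 was also lost by limma on TPM (adjusted p from 0.11 to 0.181). FANCF was the single member that was lower in OVCAR4 ResB than in OVCAR4 by call, beside 8.77% of all genes tested. Its promoter, printed above, holds 2 CCAAT boxes.

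Of the other core genes FANCA was lower in PEO4 (log2 fold change -0.59 ± 0.22 SE, adjusted p = 0.0247, DESeq2) and PEO6 (-0.89 ± 0.27 SE, adjusted p = 0.0039), with 4.53, 3.85 and 3.63 TPM and 2.72, 3.59 and 4.4 TPM beside 8.21, 5.55 and 8.13 TPM in PEO1. Neither line overlapped PEO1. The PEO4 call was lost whichever replicate was left out (adjusted p from 0.0967 to 0.319) and the PEO6 call without replicate 1 or 2 (adjusted p = 0.125 and 0.0583). Both were also lost with the mitochondrial rRNA covariate (adjusted p = 0.0832 and 0.199). FANCB, the X-linked subunit of the catalytic module, was lower in the same lines, 1.58-fold in PEO4 (-0.66 ± 0.23 SE, adjusted p = 0.0141) and 2.19-fold in PEO6 (-1.13 ± 0.30 SE, adjusted p = 0.00074), with adjusted p of 0.312 and 0.139 in PEO4 without replicate 1 or 2 and of 0.113 in PEO6 without replicate 2. With the mitochondrial rRNA covariate the FANCB call in PEO6 was lost (adjusted p = 0.0762). FANCE, the adaptor that binds FANCD2, was 1.81-fold higher in PEO6 (0.86 ± 0.36 SE, adjusted p = 0.0433), lost whichever replicate was left out (adjusted p from 0.16 to 0.429). FANCG and UBE2T, the E2 enzyme, were called lower in OVCAR3 ResA and PEA2 and FANCM in OVCAR3 ResA, and each of these 5 calls was lost without replicate 1 (adjusted p from 0.065 to 0.355). FANCC and FANCL were called in no pair with a sensitive line.

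FANCI was higher in OVCAR3 ResA, with 38.4, 28.2 and 24.6 TPM beside 20.5, 16.6 and 14 TPM in OVCAR3 (1.62-fold, log2 fold change 0.69 ± 0.12 SE, adjusted p = 1.87e-08, DESeq2), and lower in PEA2, with 38.5, 27.6 and 24.4 TPM beside 70.6, 45.6 and 87 TPM in PEA1 (-1.02 ± 0.24 SE, adjusted p = 8.86e-05). Both calls were kept in every alternative run and whichever replicate was left out, and the libraries did not overlap. In PEO6 FANCI was lower than in PEO1 (-0.86 ± 0.25 SE, adjusted p = 0.00222) and 2.24-fold lower than in PEO4 (-1.17 ± 0.35 SE, adjusted p = 0.00753). These calls were lost without replicate 2 (adjusted p = 0.144 and 0.564), the former also with the mitochondrial rRNA covariate (-0.46, adjusted p = 0.577), the latter also without replicate 1 (adjusted p = 0.136), by edgeR (adjusted p = 0.0695) and by limma on TPM. FANCD2, its partner, was called in no pair with a sensitive line. The nearest estimate was 0.87 ± 0.37 SE in OVCAR4 ResB (adjusted p = 0.086), and in OVCAR4 ResB against OVCAR4 ResA FANCD2 was 1.6-fold higher (0.68 ± 0.15 SE, adjusted p = 5.62e-05), with 20.3, 30.3 and 32.8 TPM beside 9.85, 19.8 and 22.5 TPM; without the block the adjusted p was 0.174.

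BLM, RMI1, RMI2 and TOP3A form the complex that takes double Holliday junctions apart without crossover. BLM was 1.51-fold higher in OVCAR3 ResA (log2 fold change 0.59 ± 0.14 SE, adjusted p = 9.67e-05, DESeq2), kept in every alternative run. In PEO6 BLM was called lower (-0.79 ± 0.25 SE, adjusted p = 0.00587), which was lost without replicate 1 or 2 (adjusted p = 0.0503 and 0.194), without the block (0.0641) and with the mitochondrial rRNA covariate (0.514). RMI2 was 2.08-fold lower in PEA2, with 22.5, 18.9 and 18.3 TPM beside 40.7, 49.5 and 44.4 TPM in PEA1 (-1.05 ± 0.26 SE, adjusted p = 0.000251), and was also kept throughout. Against OVCAR3 ResA, OVCAR3 ResB was 2.47-fold lower in RMI1 (-1.31 ± 0.37 SE, adjusted p = 0.00562) and 2.09-fold lower in RMI2 (-1.06 ± 0.37 SE, adjusted p = 0.033); these were the only members called in that comparison. RMI1 was lost there without replicate 1 or 2 (adjusted p = 0.15 and 0.424) and RMI2 whichever replicate was left out (adjusted p from 0.0524 to 0.408). TOP3A was 2.34-fold higher in OVCAR4 ResB than in OVCAR4 (1.23 ± 0.40 SE, adjusted p = 0.0175), lost without replicate 2 or 3 (adjusted p = 0.4 and 0.617), and 1.77-fold higher than in OVCAR4 ResA (0.82 ± 0.13 SE, adjusted p = 7.07e-09), lost without the block (adjusted p = 0.157). The call against OVCAR4 was also lost by edgeR (adjusted p = 0.0917) and by limma on TPM (adjusted p from 0.114 to 0.181). TOP3A was called lower in OVCAR3 ResA (-0.36 ± 0.15 SE, adjusted p = 0.0427), a call lost whichever replicate was left out (adjusted p from 0.152 to 0.449) and without the block (0.129). Neither BLM nor TOP3A passed the test between families (adjusted p = 0.171 and 0.121).

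GEN1, MUS81-EME1 and SLX4 cut branched DNA, and SLX4 is the scaffold for the nucleases that unhook crosslinks. The lowest TPM of any member in a single library was that of SLX4 in PEA2 replicate 3. PEA2 had 1.01, 0.685 and 0.446 TPM and PEA1 2.17, 1.59 and 4.08 TPM, a 3.24-fold difference (log2 fold change -1.70 ± 0.39 SE, adjusted p = 5.59e-05, DESeq2) that was kept whichever replicate was left out. OVCAR4 had 1.22, 0.841 and 0.82 TPM, OVCAR4 ResA 1.89, 3.16 and 3.54 TPM and OVCAR4 ResB 2.18, 3.36 and 3.64 TPM. The increase was called in ResB (1.10 ± 0.37 SE, adjusted p = 0.0212), lost without replicate 2 or 3 (adjusted p = 0.436 and 0.64), and was 1.03 ± 0.39 SE in ResA (adjusted p = 0.0658). The ResB call was also lost by edgeR (adjusted p = 0.0645) and by limma on TPM (adjusted p from 0.127 to 0.164). GEN1 was lower in PEA2 (-0.68 ± 0.24 SE, adjusted p = 0.0128) and MUS81 in PEO4 (-0.59 ± 0.20 SE, adjusted p = 0.013). Both were lost without replicate 1 (adjusted p = 0.116 and 0.141) and without replicate 2 (adjusted p = 0.154 and 0.288). The GEN1 call was also lost with the mitochondrial rRNA covariate (adjusted p = 0.141). EME1 was called in no comparison of lines.

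**Figure D3:**
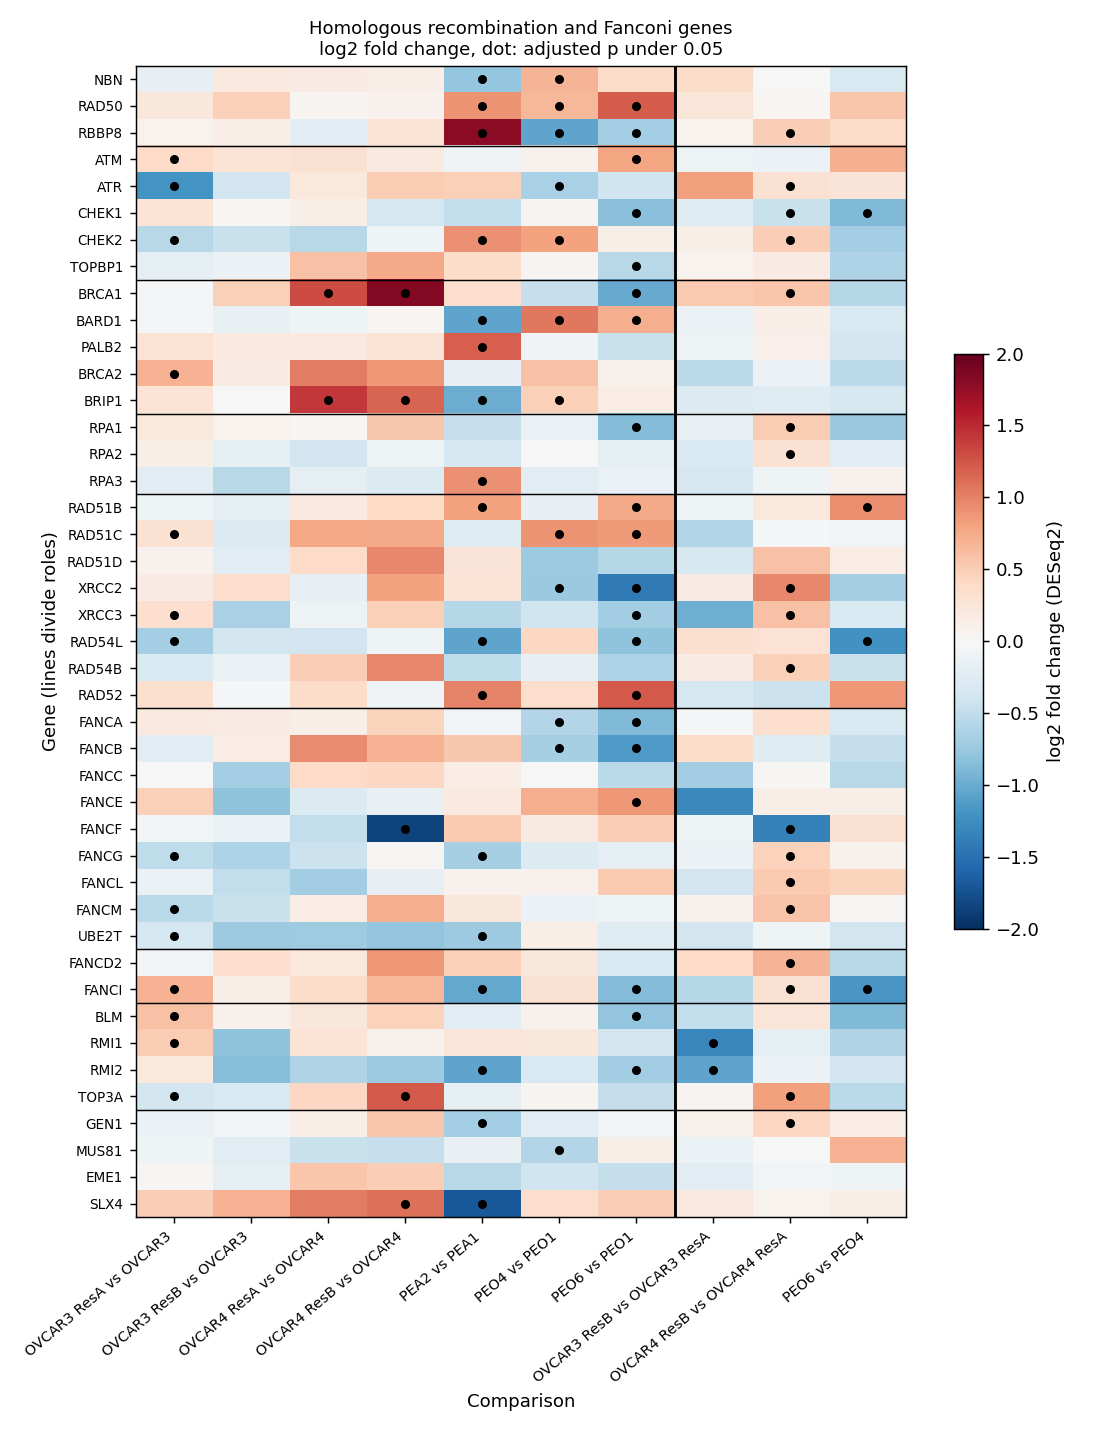
log2 fold change (colour, from -2 to 2) of the 43 members (rows, grouped by role with lines between roles) in the 7 resistant-sensitive pairs and, right of the thick line, the 3 comparisons of resistant lines (columns); dots mark an adjusted p under 0.05. The deepest colours were BRCA1 (1.84) and FANCF (-1.85) in OVCAR4 ResB and RBBP8 (1.80) and SLX4 (-1.70) in PEA2, and OVCAR3 ResB against OVCAR3 had 0 dots.

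The pattern over pairs was also put to the lines themselves, with the 3 libraries of each line summed and family as a covariate. At this level 0 of 43 members were called by DESeq2 and 0 by edgeR, with 4 and 3 at an unadjusted p under 0.05, beside 0.286% of 23782 genes. The median log2 fold change of the members was 0.00, and of all genes 0.01. Examples of the estimates, picked after their values were seen, were 0.52 ± 0.24 SE for RAD50, 0.39 ± 0.25 SE for BRCA2, 0.36 ± 0.27 SE for RAD51C, 0.34 ± 0.39 SE for BRCA1 and -0.40 ± 0.32 SE for RAD54L. Leaving out any family also gave 0 calls, with 1 or 2 members at an unadjusted p under 0.05.

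Whether the resistant-sensitive difference itself differed between the 4 families was tested by a likelihood ratio test in DESeq2 over all 33 libraries. The libraries of both resistant lines of a family were pooled in it, and PEA had PEA2 alone. Libraries and not lines were the unit, so its p-values do not measure the spread between lines. It was called for 20 of 43 members (46.5%), beside 53.6% of all genes tested. The smallest adjusted p belonged to RBBP8 (9.58e-15), SLX4 (1.47e-11), BRIP1 (3.44e-10), BARD1 (2.88e-08) and PALB2 (1.07e-07). Of the 43 members 11 were called higher in one family and lower in another, and for 8 of these the family test was called too. The share of all genes called in opposite directions was not counted. The pair calls and the family test use the same libraries, so they are not separate support. RMI1 (adjusted p = 0.921), RPA2 (0.811), MUS81 (0.767) and FANCD2 (0.7) had the largest values.

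By line means of log2(TPM + 1) over the 11 lines, the members most like BRCA2 were FANCC (Pearson r = 0.96), FANCE (0.84) and EME1 (0.80). Those most like BRCA1 were FANCM (0.80), NBN (0.77) and RAD51B (0.75), and those most like FANCD2 were RAD54B (0.82), PALB2 (0.79) and FANCB (0.76). These are descriptions over 11 points, of which several are related lines, and library composition is shared between all genes of a library.

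Of 54 further genes of the same pathway, 19 were called in OVCAR3 ResA (8 higher, 11 lower), 2 in OVCAR4 ResA (1 and 1) and 4 in OVCAR4 ResB (3 and 1). In PEA2 25 were called (12 and 13), in PEO4 20 (7 and 13) and in PEO6 19 (5 and 14). In the same order of pairs, 44.9%, 11.9%, 17.9%, 47%, 33.3% and 41.4% of all genes tested were called. In OVCAR3 ResB 0 were called by DESeq2, with 1 at an unadjusted p under 0.05, beside 7.67% of all genes called. The calls of these further genes were not followed through the alternative runs. The largest increase in PEA2 was SFR1, a strand exchange cofactor, at 96.2 TPM ± 1.56 (SD, n = 3) beside 13.1 TPM ± 3.93 (SD, n = 3) in PEA1 (log2 fold change 3.02 ± 0.28 SE, adjusted p = 9.59e-25, DESeq2). The largest decrease in PEO6 was EXO1, the resection nuclease (-2.67 ± 0.24 SE, adjusted p = 1.03e-26), which was also the largest decrease in PEO4 (-1.38 ± 0.21 SE, adjusted p = 6.99e-10). CLSPN, the mediator of CHEK1 activation, was the largest decrease in OVCAR3 ResA (-1.27 ± 0.11 SE, adjusted p = 6.88e-30) and the largest increase in PEO4 (1.33 ± 0.18 SE, adjusted p = 9.37e-12). In both OVCAR4 lines BRCC3, a deubiquitinase of the BRCA1-A complex, was the largest increase (1.16 ± 0.33 SE and 1.34 ± 0.33 SE, adjusted p = 0.00666 and 0.000657) and SWI5, the partner of SFR1, the largest decrease (-1.10 ± 0.33 SE in each, adjusted p = 0.0121 and 0.00711). In OVCAR4 ResA they were the only further genes called. Among the 43 members, 0 calls were left in either of these pairs without replicate 2 or without replicate 3.

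Many homologous recombination genes are expressed mainly in S and G2 phase, and a list of 30 proliferation markers was therefore set beside the members. In PEO6, 26 of the 30 were lower than in PEO1 and 0 higher, with a median log2 fold change of -1.09 beside -0.30 for the members. Against PEO4, 15 were lower and 0 higher (median -0.88, beside -0.31 for the members). In OVCAR4 ResB the median of the markers was 0.00 beside 0.42 for the members, and 0 markers were called by DESeq2, with 4 at an unadjusted p under 0.05. In OVCAR3 ResA 20 markers were called, 9 higher and 11 lower. PEA2 had 15 called (5 higher, 10 lower, median -0.14), PEO4 10 (2 higher, 8 lower, median -0.09) and OVCAR3 ResB 1, which was higher, while in OVCAR4 ResA 0 were called by DESeq2, with 1 at an unadjusted p under 0.05. Between resistant lines, 17 were called in OVCAR4 ResB against ResA (12 higher, 5 lower, median 0.06) and 0 in OVCAR3 ResB against ResA, with 5 at an unadjusted p under 0.05. The part of proliferation in the member values was not tested. Over the 11 lines the members whose line means followed the markers most closely were FANCI (Pearson r = 0.87), RAD54B (0.82), RPA1 (0.81), RAD54L (0.79) and BLM (0.79), and FANCF was the furthest in the other direction (-0.65), followed by FANCL (-0.40).

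Libraries of the same line also differed from each other in the members. For each library the deviation from the mean of its line was taken, in log2 normalised counts, so that differences between lines were removed. The mean of the 43 members had a Pearson r of -0.82 with the mitochondrial rRNA share and of 0.87 with the mean of the proliferation markers over the 33 libraries, and the markers themselves had r = -0.66 with the share. Of the members 31 had a negative r with the share and their median was -0.54, while over the 13249 genes of the table that averaged 50 normalised counts or more the median was -0.05 and 51.7% were negative. FANCC (-0.94), FANCE (-0.93), RPA1 (-0.92), XRCC2 (-0.88) and TOPBP1 (-0.87) were the most negative, with BRCA2 at -0.81 and BRCA1 at -0.76. Other members went the opposite way: RAD50 (0.89), RMI2 (0.79), FANCF (0.78) and BARD1 (0.66). Libraries share their line, so these are descriptions.

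**Figure D4:**
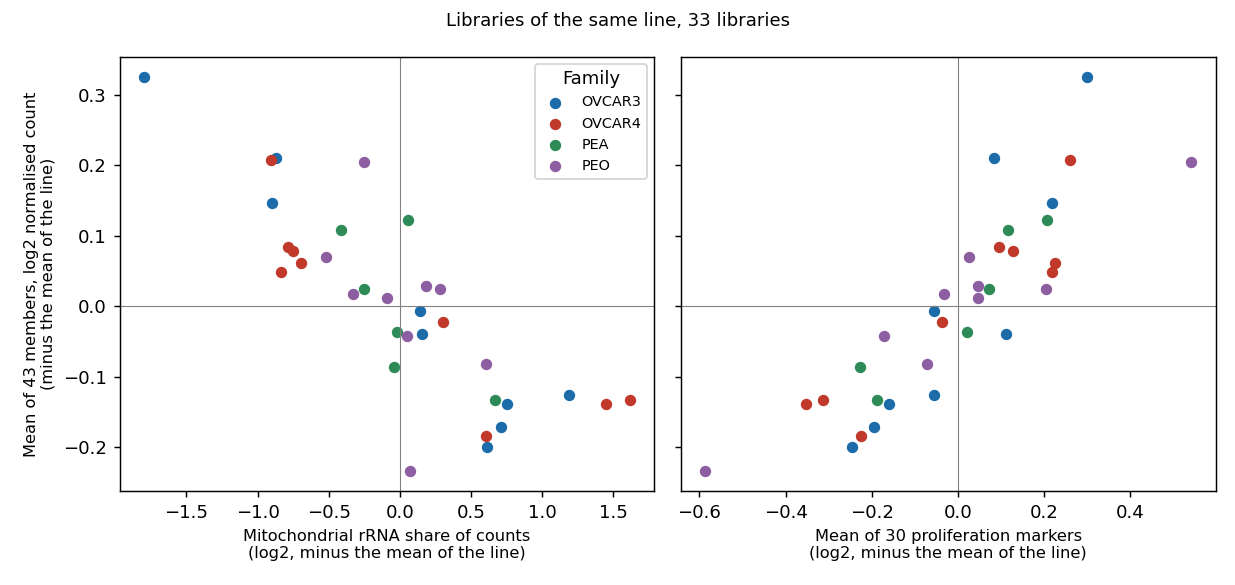
Deviation of each of the 33 libraries from the mean of its line: mean of the 43 members in log2 normalised counts (y axis) against the mitochondrial rRNA share (left, log2) and the mean of 30 proliferation markers (right, log2), coloured by family. Points fall to the right in the left panel (r = -0.82) and rise in the right panel (r = 0.87); the point at the upper left is OVCAR3 ResB replicate 3, with a share of 1.12%.

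OVCAR3 ResB replicate 3 was the clearest case. It had 27.4 TPM of CHEK1 beside 11.2 and 6.66 TPM in replicates 1 and 2, 26.9 TPM of FANCD2 beside 10 and 7.03 TPM, and 70.1 TPM of RPA1 beside 26 and 16.8 TPM. RAD50, in contrast, had 37.3 TPM beside 44.9 and 41.3 TPM. Leaving out replicate 3 gave 7 called members in OVCAR3 ResB in place of 0. In the OVCAR4 family replicate 1 stood opposite to replicates 2 and 3, with the low share in OVCAR4 and the high share in ResA and ResB, and leaving out replicate 1 gave 21 called members in ResA and 24 in ResB in place of 2 and 5. The part of RNA composition in these differences was not tested. The share of all genes called without replicate 1 or without replicate 3 was not counted.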

How the data were processed

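RNA was sequenced from poly(A) libraries of 11 cell lines, 3 libraries per line. The authors quantified reads with salmon in the nf-core/rnaseq pipeline and deposited merged gene tables of estimated counts (expected counts, not whole numbers) and of TPM (scaled to gene length and library total); the submitters' processing notes name GRCh38 and DRAGEN. Line and replicate were taken from the labels and column names, and sensitive or resistant from the study's description. All columns were used.

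Expected counts were rounded and tested per pair of lines with DESeq2 1.42.0 (R 4.3.3, Wald test, replicate number as block as in the study's methods). No filter on low counts was applied before fitting. By default DESeq2 then set aside genes of low mean count before the Benjamini-Hochberg adjustment. The genes tested are those left with an adjusted p, from 14993 (OVCAR4 ResA against OVCAR4) to 18160 (OVCAR3 ResA against OVCAR3) of 29744. Calls were made at an adjusted p under 0.05. Counts summed per line were tested with family as covariate, and the difference between families by a likelihood ratio test on all 33 libraries. The latter pooled the libraries of the resistant lines of a family. Scripts were tested on simulated data. Alternatives were edgeR 4.0.16, TMM size factors, a mean count of at least 10, limma 3.58.1 on log2(TPM + 1) or log2(TPM + 0.1) with and without a minimum mean of 1 TPM, counts summed with copies, all libraries in one fit, no block, each replicate number left out, and, chosen after seeing the data, the mitochondrial rRNA share as covariate in place of the block.

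Named genes were, per comparison, the 3 called higher and the 3 called lower with the largest change at a mean normalised count of at least 50, with BRCA1, BRCA2, PALB2, FANCD2, FANCI, FANCA, RAD51C and RAD51D in every line and members called in opposite directions between families that also differed between families in the likelihood ratio test. Other called members are given as context. The members and lists were chosen with earlier results of these data known. The labels do not say whether the 3 libraries of a line are separate cultures, so p-values measure only the spread between these libraries. Libraries of the same number deviated together in all 3 pairs in OVCAR3 ResA against OVCAR3 (r = 0.822, 0.351 and 0.684) and between the 2 resistant OVCAR4 lines (0.837, 0.756 and 0.708). In PEO4 against PEO1 r was also positive in all 3 (0.611, 0.0371 and 0.222). It was negative in all 3 in both resistant OVCAR4 lines against OVCAR4 and in PEO6 against PEO4, and of mixed sign in the other comparisons. Promoter windows are from RefSeq on GRCh38.p14 and were searched on both strands. Some genes of the lists are not reported here.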

Additional observations from a re-analysis of the deposited data

Results flagged for a closer look

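For 8 members the resistant-sensitive difference was called in opposite directions in different families and also differed between the families in the likelihood ratio test of DESeq2 over 33 libraries. That test took libraries as the unit and pooled the resistant lines of a family. The adjusted p of that test was 9.58e-15 for RBBP8 (higher in PEA2, lower in PEO4 and PEO6), 2.88e-08 for BARD1 (lower in PEA2, higher in PEO4 and PEO6), 0.0137 for NBN (lower in PEA2, higher in PEO4) and 3.64e-05 for CHEK2 (lower in OVCAR3 ResA, higher in PEA2 and PEO4). It was 0.000705 for BRCA1 (higher in both OVCAR4 lines, lower in PEO6), 3.44e-10 for BRIP1 (higher in both OVCAR4 lines and PEO4, lower in PEA2), 1.47e-11 for SLX4 (higher in OVCAR4 ResB, lower in PEA2) and 0.00721 for FANCI (higher in OVCAR3 ResA, lower in PEA2 and PEO6). Over all genes tested 53.6% were called in this test. How many of them were also called in opposite directions was not counted, and the pair calls rest on the same libraries.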

How the results depend on the processing

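Counts of called members moved by more than 1.5 times under several settings. Without the replicate block they were 7 in OVCAR3 ResA, 1 in OVCAR3 ResB, 7 in OVCAR4 ResA and 10 in OVCAR4 ResB. They were 5 in OVCAR4 ResB against ResA and 11 in PEO6 against PEO4. Libraries of the same number deviated in opposite directions in OVCAR4 ResA against OVCAR4 (r = -0.584, -0.467 and -0.229) and OVCAR4 ResB against OVCAR4 (-0.57, -0.495 and -0.133). The same held in PEO6 against PEO4 (-0.436, -0.191 and -0.511). In these comparisons the block joins libraries that did not move together. By edgeR they were 0 in OVCAR4 ResA (7 at an unadjusted p under 0.05), 3 in OVCAR4 ResB and 1 each in OVCAR3 ResB against ResA and PEO6 against PEO4. By limma on TPM, filtered with either pseudocount or unfiltered, they were 0 in OVCAR4 ResA, OVCAR4 ResB, OVCAR3 ResB against ResA and PEO6 against PEO4 (7, 14, 2 and 9 at an unadjusted p under 0.05 with the filter and a pseudocount of 1, and 6, 11, 2 and 6 without it), and without the filter 10 in PEA2, 6 in PEO4 and 4 in PEO6. With the mitochondrial rRNA covariate, chosen after seeing the data, they were 6 in OVCAR3 ResB, 13 in OVCAR4 ResA, 17 in OVCAR4 ResB, 4 in PEO6, 9 in OVCAR3 ResB against ResA and 15 in PEO6 against PEO4. With all libraries in one fit they were 7 in OVCAR3 ResA, 5 in OVCAR3 ResB, 10 in OVCAR4 ResA, 16 in OVCAR4 ResB, 7 in PEO4, 5 in OVCAR3 ResB against ResA, 4 in OVCAR4 ResB against ResA and 9 in PEO6 against PEO4. Leaving out 1 replicate number gave 5 to 9 in OVCAR3 ResA, 0 to 7 in OVCAR3 ResB, 0 to 21 in OVCAR4 ResA, 0 to 24 in OVCAR4 ResB, 7 to 21 in PEA2, 3 to 19 in PEO4, 4 to 17 in PEO6, 0 to 8 in OVCAR3 ResB against ResA, 5 to 16 in OVCAR4 ResB against ResA, 0 to 18 in PEO6 against PEO4 and 7 to 21 in the test between families. The cause was not tested, and the share of all genes called under these settings was not counted. Of 94 gene results 0 reversed in any of 13 settings; 94 were on the same side of the threshold with TMM size factors, 85 by edgeR, 71 without the block and 35 without replicate 2.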
